A study of Mus musculus with 6 samples.

Results

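The type I interferon antiviral genes are 40 mouse genes that interferon-stimulated cells are known to make: the Ifit proteins, the ISG15 system, the oligoadenylate synthetases, sensors of foreign nucleic acid, membrane proteins that block virus entry or release, and the transcription factors behind them. They were chosen by symbol, and the array probe with the highest mean signal stood for each gene. A probe was matched to 39 of the 40. None was matched to Oas1b, which is not analysed here. All 39 entered the test among 25784 genes, 17252 of them under a symbol. Oas3 did so through the treated arrays only, since the test kept probes that cleared background on every array of 1 group or the other, and Oas3 did so on 2 of 3 control arrays.

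Islets of male mice of the C57Bl/6N strain were dispersed, and the cells were cultured for 72 h. Control cultures received no exosomes. Treated cultures (exoNOD) received exosomes, the small vesicles that cells release, at 50 µg/ml. The donors were NOD mice, which spontaneously become diabetic through autoimmunity, and the vesicles came from the medium of their CD4+CD25- T lymphocytes. There were 3 arrays per group from 3 experiments with separate islet and exosome preparations. Exosomes of another strain or cell type are not part of the comparison. Whole cultures were measured, so fewer cells of a type and less RNA per cell cannot be told apart.

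Type I interferons are secreted alarm proteins. They bind the receptor chains Ifnar1 and Ifnar2, and the signal brings Stat2 and Irf9 into a complex that enters the nucleus and binds the interferon-stimulated response element in the promoters of antiviral genes. Beta cells and the immune cells of islets both respond to interferon, and the response is well known from islets in autoimmune diabetes.

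The response element is a pair of GAAA words, and its core was searched as GAAANNGAAA on both strands, with no mismatch, in promoter windows from RefSeq (GRCm38.p6) that run from 250 bases before to 50 after a gene's start. Of the 33 genes of the set with a window, 14 (42.4%) held the core, against 3.99% of the 27025 genes with a window. Isg15, Ifit1 and Ifit3 are shown because each held several copies before its start and rose with the replicate block described below. Ifitm3 held 2 matches as well, both after its start, and is not printed. Oas1a and Bst2 also held several copies before the start. They did not pass with the block, at changes of 0.14 and -0.03, and are not printed. The capitals mark the 4-letter words of each match, which read TTTC where the match lies on the other strand; each stretch is the 160 bases before the gene's start, on the gene's own strand.
Isg15, chr4:156200819-156200978, minus strand: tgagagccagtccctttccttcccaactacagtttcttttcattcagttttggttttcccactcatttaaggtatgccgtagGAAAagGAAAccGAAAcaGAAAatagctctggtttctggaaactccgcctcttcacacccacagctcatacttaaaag
Ifit1, chr19:34640729-34640888, plus strand: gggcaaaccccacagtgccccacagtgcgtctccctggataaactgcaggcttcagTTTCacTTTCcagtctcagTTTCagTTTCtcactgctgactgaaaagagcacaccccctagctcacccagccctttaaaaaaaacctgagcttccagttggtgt
Ifit3, chr19:34583369-34583528, plus strand: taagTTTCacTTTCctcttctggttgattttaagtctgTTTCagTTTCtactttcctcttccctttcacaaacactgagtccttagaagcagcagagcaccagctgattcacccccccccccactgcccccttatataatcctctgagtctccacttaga
In Isg15 the 3 matches overlap one another. The windows of Ifit2, Herc6 and Ifitm1 held no match, which says only that these letters are not in those windows. The 14 genes with a match had a median log2 change of 0.20, and 13 of them were higher in exoNOD. The 19 genes without one had a median of 0.08, and 15 were higher. The 6 genes with no window had a median of 0.26, above that of the genes with a match, and all 6 were higher. These are descriptions, since a match is not a measured binding site.

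In the exoNOD cultures most of the antiviral genes lay slightly higher, and 8 of them passed the test once arrays were paired by replicate number. Of the 39 genes, 34 (87.2%) had a higher mean in exoNOD, against 55.4% of all genes tested, and their median log2 change was 0.17 (1.13-fold) against 0.04 over all genes. All levels are log2 signals relative to the array's 75th percentile, and a change is the exoNOD mean minus the control mean with its standard error (SE). Unless said otherwise, the SE is that of the fit without the replicate block, also where a block adjusted p stands beside it. None of the 39 passed the limma test at an adjusted p of 0.05 over all genes, at which 0.105% of all genes passed (0.101% higher, 0.00388% lower). Of the 39, 9 (23.1%) had an unadjusted p under 0.05, all of them higher, against 16.6% of all genes, 13.3% higher and 3.39% lower. With the replicate number as a block, which pairs arrays of equal number, 8 (20.5%) rose and none fell, against 8.72% of all genes, of which 6.89% rose and 1.83% fell. Those 8 were Ifit1, Ifit2, Ifit3, Isg15, Herc6, Oas2, Ifitm1 and Ifitm3. The 3 exoNOD arrays lay above the 3 control arrays for 8 genes (20.5%, against 14.6% of all genes) and below them for none (7.78% of all genes, 22.4% in either direction). These were not the same 8, since Oasl1 and Ifih1 stood in place of Oas2 and Ifitm1. In all 3 pairs of equal replicate number 18 (46.2%) were higher, against 29% of all genes, and 2 were lower, against 22.2%.

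The median depended on how arrays were scaled. Scaling by each array's median left 21 of 39 genes higher, with a median change of 0.04 against -0.10 over all genes. A normexp background correction left 22 higher with a median of 0.09, and there the median of all genes was 0.35, so that the set lay below it. Relative to all genes, the median of the set was 0.14 higher as reported and after scaling by the median, and -0.25 after the correction. None of the 8 genes that rose with the block changed sign under any of the 21 other settings. They were named for their rise on these same arrays, which the settings reuse, so this is only a description.

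**Figure D1:**
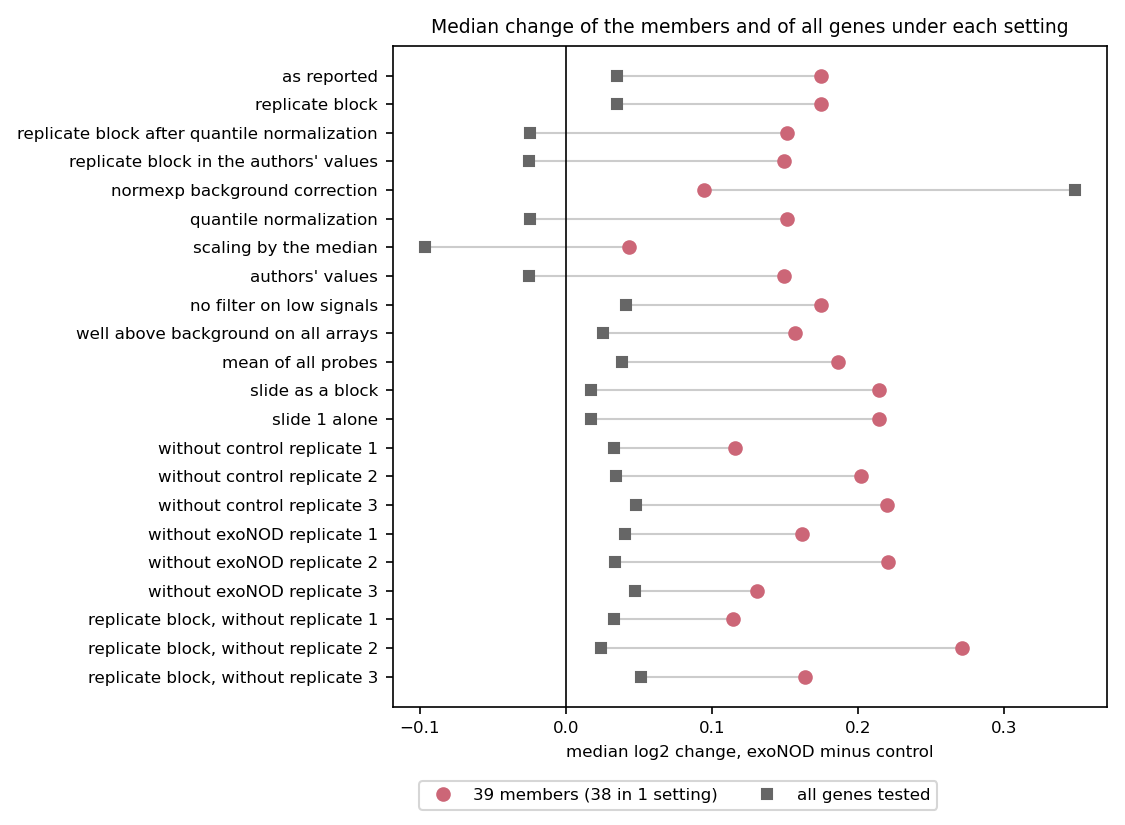
Median log2 change (exoNOD minus control, x axis) of the antiviral genes (circles) and of all genes tested (squares) under each setting (y axis). The circles lie right of 0 in every setting shown and right of the squares in all but the normexp correction, where the medians were 0.09 and 0.35.

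The 3 pairs and single arrays differed. Relative to each gene's mean over the 6 arrays, control replicate 1 had the lowest value for 27 of the 39 genes, with a median deviation of -0.25, and exoNOD replicate 3 had the highest for 23, with a median of 0.20. The exoNOD replicate 2 array had a median deviation of 0.00, and control replicate 2 one of 0.02. The median change was 0.35 in pair 1, with 36 genes higher, 0.03 in pair 2, with 20 higher, and 0.25 in pair 3, with 30 higher. Over all genes these pair medians were 0.02, 0.07 and 0.02. Leaving out replicate 1 left 5 genes past the threshold with the block (Herc6, Ifit2, Ifitm1, Ifitm3, Isg15), and leaving out replicate 2 left 5 (Ifit1, Ifit2, Ifit3, Ifitm1, Isg15). Leaving out replicate 3 gave 8, of which 7 were among the 8 that rose with the block on all arrays, with Ifi44 in place of Ifit1. Of all 25784 genes these fits called 4174 (3450 higher), 440 (364 higher) and 1738 (1493 higher). Without replicate 1 the share of the 39 genes called was thus below that of all genes.

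**Figure D2:**
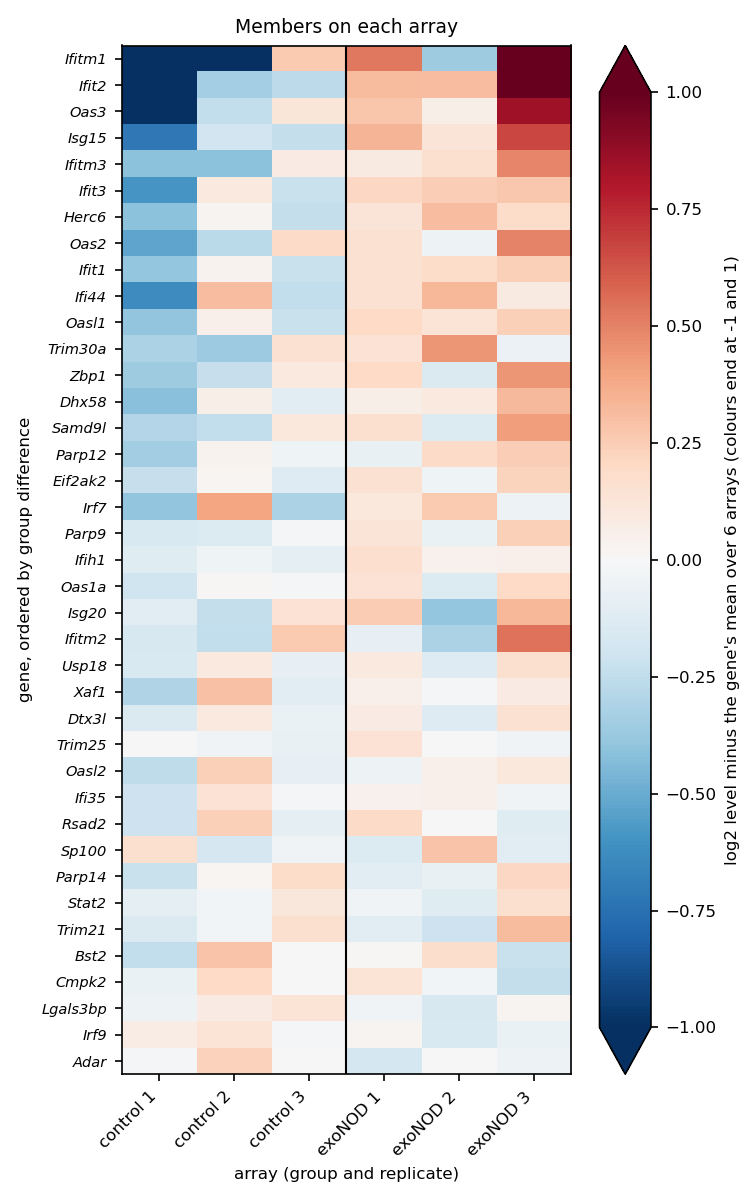
Heat map of the 39 antiviral genes (y axis, ordered by the difference between groups) on each array (x axis), coloured by the log2 level minus the gene's mean over 6 arrays, with colours that end at -1 and 1. Control replicate 1 is mostly blue (lower), with a median of -0.25, and exoNOD replicate 3 mostly red (higher), with a median of 0.20.

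By the scan times in the file headers, the 3 controls and exoNOD replicate 1 were scanned together and exoNOD replicates 2 and 3 at another time, with no control among them. Within the first scan, exoNOD replicate 1 was above the mean of the 3 controls for 29 of 39 genes, with a median difference of 0.21. Over all genes 53.8% were above it, with a median of 0.02. All 8 genes that rose with the block were above that mean, by 0.34 (Ifitm3) to 1.15 (Ifitm1). The fit that named these 8 used the same arrays, so their position here is no separate check. The arrays had 75th percentiles of signal between 812 and 890, with 78.1% to 81.8% of spots well above background and none saturated.

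Markers of the cells a culture could hold were read on the same arrays, as a summed level with the array's 75th percentile taken as 1. With the block 6.89% of all genes rose and 1.83% fell, which stands beside each count below. All 10 beta cell markers were above background on all arrays, with sums of 1107 to 1175 in controls and 1074 to 1095 in exoNOD, and 6 of them fell with the block. Ins1, Ins2 and Iapp gave most of that sum and were not among the 6, so the sum does not describe those that fell. Plasmacytoid dendritic cells are known for high interferon output. Their 5 markers, 3 of them above background on all arrays, summed to 89.7 to 93.6 and 100 to 106. Siglech gave nearly all of that sum, and of the 5 Cox6a2 fell with the block and none rose. Klk1 and Ly6d, above background on 2 of 3 control and all exoNOD arrays, entered the test through the exoNOD arrays only. Whether the sum marks such cells was not tested. The 9 macrophage and dendritic cell markers with a probe, 7 of them above background on all arrays, summed to 21.6 to 22.6 and 16.4 to 16.7. Itgam, at log2 means of 4.17 and 3.67, gave most of that sum. Under the block 2 fell, Itgam (-0.50) and Adgre1 (-0.87). Csf1r, Lyz2, Cd14 and Ptprc changed by -0.02 to -0.07, and Itgax and Flt3 by 0.18 and 0.07. Mrc1, above background on 1 of 3 control and all exoNOD arrays, entered the test through the exoNOD arrays only and is not counted. T lymphocyte markers, 7 of 9 above background on all arrays and Cd3g on none, summed to 14.2 to 19.1 and 14.2 to 18.7, with 3 rising under the block. Cd3e, which was not among those 3, gave most of that sum. B lymphocyte markers, 4 of 5, summed to 0.260 to 0.326 and 0.381 to 0.460, with Cd79b rising under the block; Ms4a1, above background on 0 of 3 control and all exoNOD arrays, is not counted for the same reason. The other islet endocrine markers (6 of 6) summed to 592 to 654 and 547 to 589, with none past the threshold under the block. Fibroblast and stellate markers (7 of 7) summed to 41.5 to 62.8 and 52.9 to 74.6, with Pdgfra rising under the block. Col1a1, which did not pass, gave most of that sum. Endothelial markers (6 of 7) summed to 7.24 to 8.36 and 8.68 to 9.30, with Plvap rising and Cdh5 and Emcn falling. Plvap gave most of that sum, while 3 of the 7 were higher in exoNOD and 4 lower. Acinar and duct markers (7 of 8, Cela2a on no array) summed to 2.01 to 3.73 and 3.54 to 5.86, with Cpa1 and Cftr rising. Cftr gave most of that sum, and of the 7 tested 5 were higher and 2 lower. Of the block calls in this paragraph, Pdx1, Mafa, Cd5, Il7r, Cpa1 and Cdh5 were lost with the block on quantile-normalized signals. The part of these differences in the values of the antiviral genes was not tested.

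Of the Ifit proteins, Ifit1 binds foreign RNA at its end and stops its translation. All 3 measured members rose with the block, at a median change of 0.48. Ifit2 was at -2.64, -1.95 and -1.87 in control replicates 1 to 3 and at -1.30, -1.30 and -0.61 in exoNOD. Every exoNOD array was above every control array, and the group means were -2.16 ± 0.42 and -1.07 ± 0.40 (SD, n = 3). The change was 1.09 ± 0.25 (2.12-fold), with a limma adjusted p of 0.128 without and 0.00228 with the block. Ifit1 was at 2.20, 2.63 and 2.37 in controls and 2.75, 2.77 and 2.83 in exoNOD. The groups did not overlap, and the exoNOD arrays lay much closer together than the controls (SD 0.04 against 0.21). Its change was 0.38 ± 0.12 (1.31-fold), with a limma adjusted p of 0.22 without and 0.036 with the block. Ifit3 was at 3.18, 3.87 and 3.55 in controls and 3.98, 4.02 and 4.04 in exoNOD. It showed the same picture, with no overlap and control replicate 1 lowest, and its change was 0.48 ± 0.16 (1.40-fold), with a limma adjusted p of 0.232 without and 0.0351 with the block. In pair 2 the differences of Ifit1 and Ifit3 were small, 0.14 and 0.15, while that of Ifit2 was 0.65. Ifit2 and Ifit3 are neighbours on the chromosome. Ifit3 has a near-identical copy, Ifit3b, and whether the probe also catches it was not tested.

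ISG15 is a small ubiquitin-like protein that is attached to other proteins. In mice Herc6 is its main attaching ligase, Usp18 removes it and restrains the receptor, and Trim25 is a ligase that also helps RNA sensing. Isg15 and Herc6 rose with the block. Isg15 was at 1.14, 1.66 and 1.62 in controls and 2.19, 1.98 and 2.52 in exoNOD, with no overlap and exoNOD replicate 3 highest. The means were 1.47 ± 0.29 and 2.23 ± 0.27 (SD, n = 3) and the change 0.76 ± 0.18 (1.69-fold), with a limma adjusted p of 0.133 without and 0.00647 with the block. A second Isg15 probe also gave 0.76. Herc6 was at 0.05, 0.48 and 0.22 in controls and 0.59, 0.77 and 0.64 in exoNOD. Its groups did not overlap either, and its change was 0.42 ± 0.13 (1.34-fold), with a limma adjusted p of 0.22 without and 0.0193 with the block; a second probe gave 0.36. Usp18 had a change of 0.09 (95% interval -0.17 to 0.35) and Trim25 one of 0.07 (-0.14 to 0.28), and neither passed the test.

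**Figure D3:**
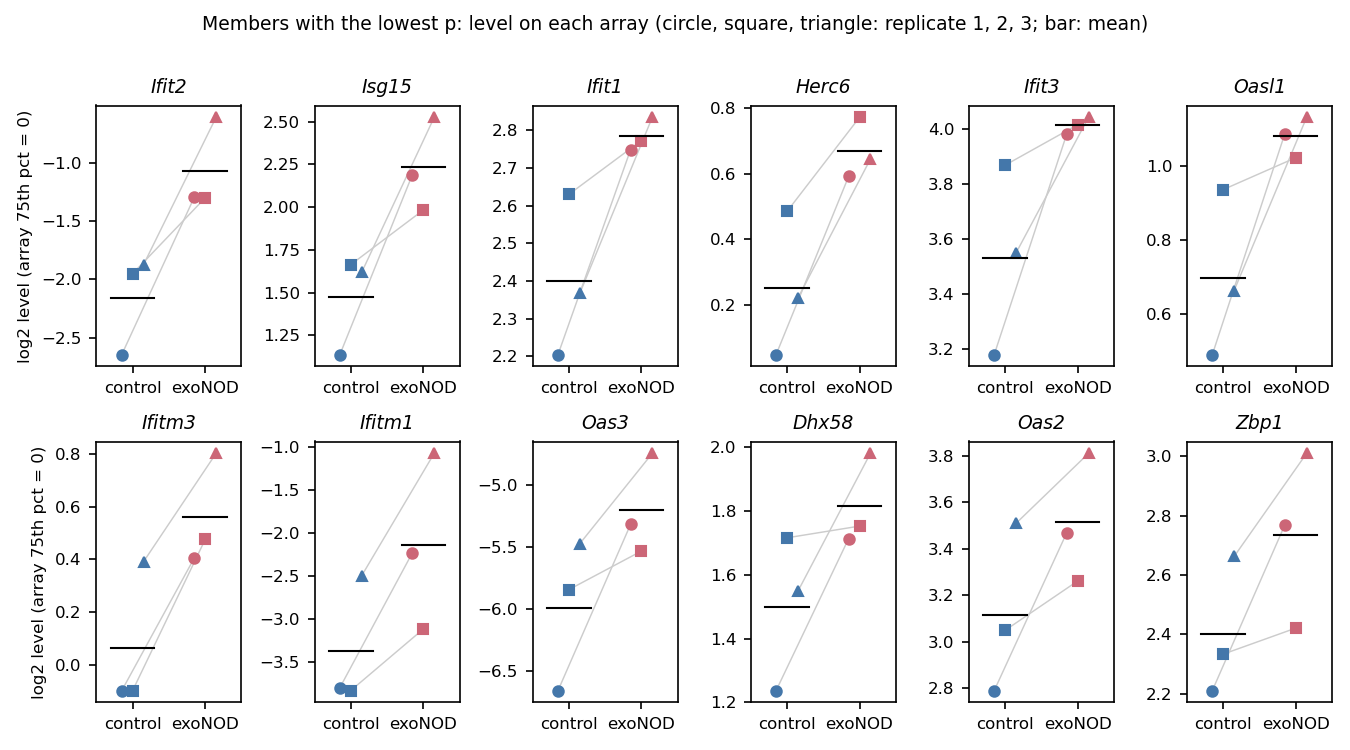
Log2 signal relative to the array's 75th percentile (y axis) of the 12 antiviral genes with the lowest unadjusted p, with 1 point per array, controls beside exoNOD (x axis), a bar at each mean and lines joining equal replicate numbers. For Ifit2, Isg15, Ifit1, Herc6, Ifit3, Oasl1 and Ifitm3 all exoNOD points lie above all control points.

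The oligoadenylate synthetases make a short RNA-like messenger that switches on RNA decay, and the OAS-like proteins act beside them. All 5 with a probe were higher in exoNOD, at a median of 0.38, and 1 of them, Oas2, rose with the block. Oas2 was at 2.79, 3.05 and 3.51 in controls and 3.47, 3.26 and 3.81 in exoNOD. Control replicate 3 lay above 2 of the 3 exoNOD arrays, so the groups overlapped, while each pair was higher in exoNOD. The change was 0.40 ± 0.20 (1.32-fold), with a limma adjusted p of 0.342 without and 0.0408 with the block. Oasl1, which restrains translation of Irf7, was at 0.49, 0.94 and 0.66 in controls and 1.09, 1.02 and 1.13 in exoNOD. The groups did not overlap, but the change of 0.38 ± 0.13 missed the threshold, with a limma adjusted p of 0.232 without and 0.0506 with the block.

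Oas3 had the lowest probe signal of the set, between 8.40 and 33.2. It was at -6.66, -5.84 and -5.47 in controls and -5.32, -5.53 and -4.74 in exoNOD. The groups overlapped by a small margin, control replicate 3 lying above exoNOD replicate 2, and the change of 0.79 ± 0.34 did not pass (limma adjusted p 0.294, with the block 0.0862). Oas1a (0.14) and Oasl2 (0.07, 95% interval -0.23 to 0.37) did not pass either. Oas1a has several near-identical relatives, and whether its probe also catches them was not tested.

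Membrane proteins of the Ifitm family hold back virus entry, and Bst2 (tetherin) holds budding virus at the cell surface. Ifitm1 and Ifitm3 rose with the block. Ifitm1 had the largest change of the 39 genes in this fit. It was at -3.79, -3.83 and -2.49 in controls and -2.22, -3.11 and -1.07 in exoNOD. The spread within each group was wide (SD 0.76 and 1.02, n = 3), and control replicate 3 lay above exoNOD replicate 2, yet every pair was higher in exoNOD, by 1.57, 0.72 and 1.42. The change was 1.24 ± 0.52 (2.35-fold), with a limma adjusted p of 0.286 without and 0.00296 with the block. Ifitm3 was at -0.10, -0.10 and 0.39 in controls and 0.41, 0.48 and 0.80 in exoNOD. The groups did not overlap, and the pair differences were 0.50, 0.57 and 0.41, the largest of them in pair 2. Its change was 0.50 ± 0.17 (1.41-fold), with a limma adjusted p of 0.234 without and 0.00736 with the block. Ifitm2, which lies beside them on the chromosome, had a change of 0.10 (95% interval -0.43 to 0.62), and Bst2 one of -0.03 (-0.38 to 0.33).

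The sensors and editors of foreign nucleic acid gave no gene past the threshold in either fit. Dhx58 encodes LGP2, a helper of RNA sensing. It was at 1.24, 1.72 and 1.55 in controls and 1.71, 1.75 and 1.98 in exoNOD, so that control replicate 2 lay just above exoNOD replicate 1, and the change was 0.32 ± 0.14 (limma adjusted p 0.303, with the block 0.0766). Zbp1, a sensor of Z-form nucleic acid, was at 2.21, 2.33 and 2.66 in controls and 2.77, 2.42 and 3.01 in exoNOD. Only exoNOD replicate 2 lay within the control range, and the change was 0.33 ± 0.17 (limma adjusted p 0.356, with the block 0.0652). Ifih1, the RNA sensor MDA5, was named after its values were seen, because its groups did not overlap: controls were at 1.69, 1.78 and 1.72 and exoNOD at 1.99, 1.85 and 1.87. That change was only 0.17 (limma adjusted p 0.366, with the block 0.198). Eif2ak2, the kinase PKR, had a change of 0.23 and did not pass. Adar, which edits RNA, had the lowest change of the 39 genes in this fit, -0.15 (95% interval -0.39 to 0.10), and lay lower in all 3 pairs. A second Adar probe gave 0.03.

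The transcription factors of the response did not move past the test. Stat2 was nearly level, with a change of 0.00 (95% interval -0.24 to 0.25). Irf9 had -0.13 (-0.34 to 0.09) and lay lower in all 3 pairs, and Irf7, the factor that amplifies interferon production, had 0.21 (-0.26 to 0.69). The sign of Stat2 turned under 13 of the 21 other settings.

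Among the enzymes that act on nucleotides and RNA, none passed. Isg20, an RNA-degrading enzyme, had one of the 2 highest probe signals of the set and was at 5.09, 4.97 and 5.35 in controls and 5.45, 4.81 and 5.53 in exoNOD. The exoNOD replicate 2 array was the lowest of the 6, the groups overlapped, and the change was 0.13 ± 0.19. Rsad2 (viperin), which makes a chain-ending nucleotide, had a change of 0.04 (95% interval -0.30 to 0.39). Its neighbour Cmpk2, which supplies the nucleotide, had -0.09 (-0.37 to 0.20).

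Of the PARP proteins and their partner Dtx3l, all 4 were higher in exoNOD at a median of 0.14, and none passed. Parp14, Dtx3l and Parp9 lie side by side on the chromosome, with changes of 0.02, 0.07 and 0.20. Parp12, which lies elsewhere, had 0.24. Of the TRIM proteins, the antibody receptor Trim21 was level (0.00, 95% interval -0.34 to 0.35). Trim30a, the second lowest in probe signal, was at -4.27, -4.32 and -3.80 in controls and -3.81, -3.51 and -4.01 in exoNOD. Pair 3 ran the other way from the other two, and the change of 0.35 ± 0.21 did not pass.

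The 6 remaining genes also gave none past the threshold. Lgals3bp, a secreted galectin-binding protein and the one with the highest probe signal, was at 6.86, 6.99 and 7.04 in controls and 6.87, 6.75 and 6.94 in exoNOD. The groups overlapped, with a change of -0.11 ± 0.10. Ifi44 had 0.38, with control replicate 1 at 0.65 and the other controls at 1.58 and 1.03, and Samd9l, which restrains translation, had 0.29. The changes of Xaf1 (0.08), Ifi35 (0.05) and Sp100 (0.03), a nuclear body protein, were each smaller than their SE.

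**Figure D4:**
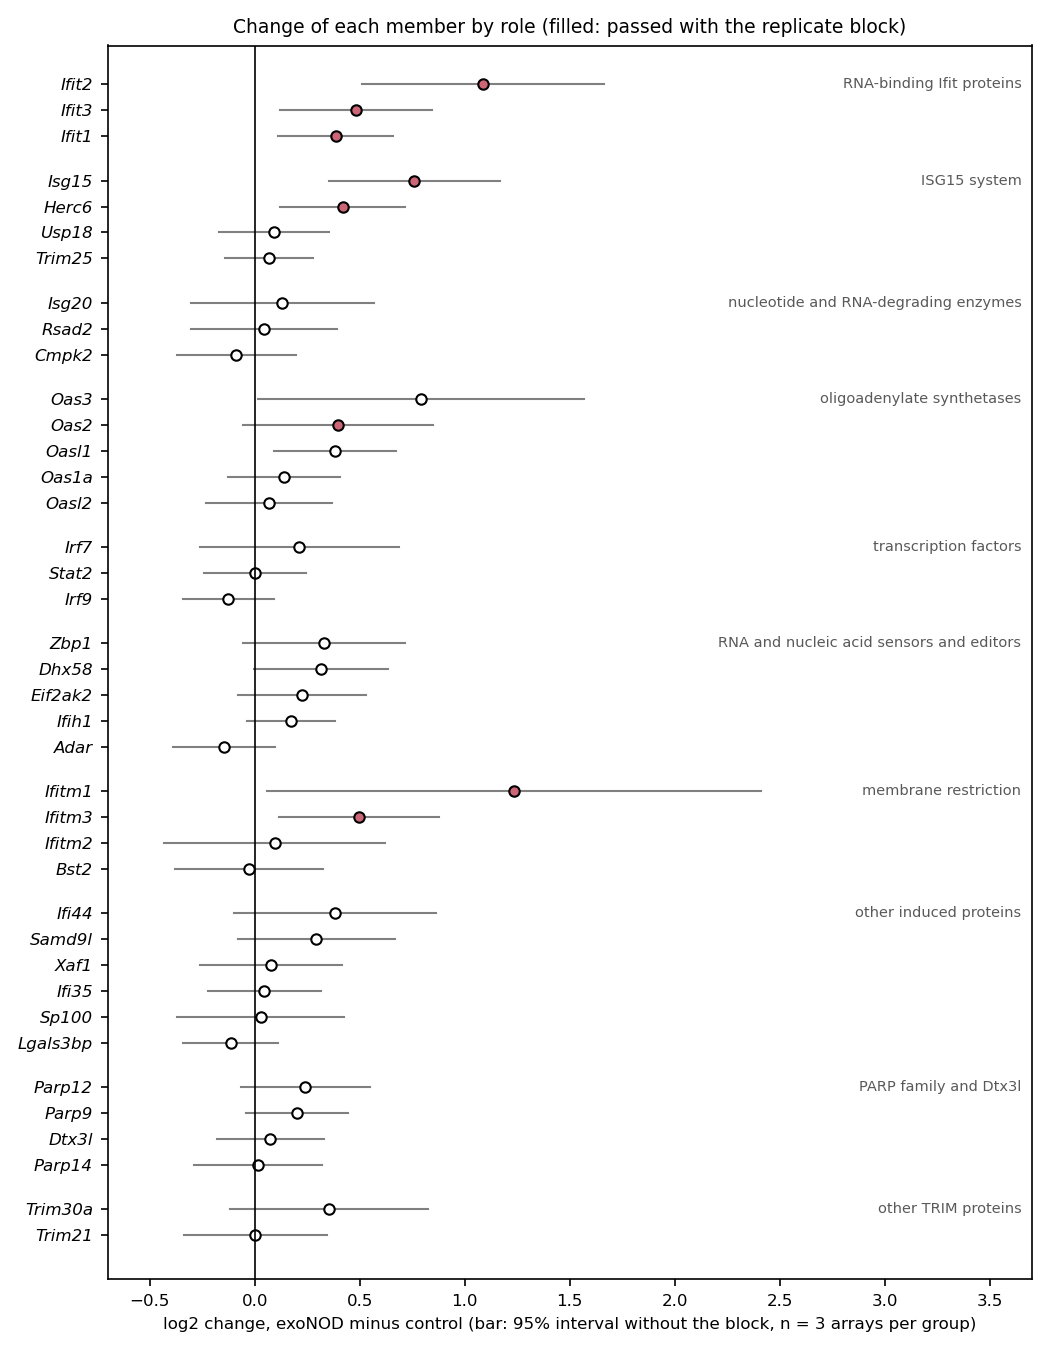
Log2 change, exoNOD minus control (x axis), of the 39 antiviral genes grouped by role (y axis), with 95% intervals of the fit without the block; filled points passed with the block. Ifitm1 (1.24) and Ifit2 (1.09) lie farthest right and Adar (-0.15) farthest left.

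A list of interferons, receptors, sensors and signalling genes gives what lies upstream. Of its 32 genes 27 were tested, and 19 were higher in exoNOD (55.4% of all genes were), at a median of 0.14 against 0.04 over all genes. None passed without the block; 7 had an unadjusted p under 0.05 and were higher, against 13.3% of all genes. With the block 5 rose and none fell, against 6.89% of all genes that rose. The interferon gene Ifnb1 was not well above background on any of the 6 arrays. The receptor chains Ifnar1 (-0.13, limma adjusted p 0.556) and Ifnar2 (0.15, limma adjusted p 0.602) did not pass. Ifna2, Ifna5 and Ifnab, named after their values were seen, were measured and higher in all 3 pairs, by a mean of 0.52, 0.44 and 0.38, and did not pass (block adjusted p 0.0907, 0.0792 and 0.099). The other interferon alpha genes tested did not run the same way in all pairs. Ifna1 had a change of 0.31 with pair 1 at -0.08, and Ifna4 one of 0.14 with pair 3 at -0.11. Ifna4, counted among the 19, was above background on 2 of 3 control arrays and entered the test through the exoNOD arrays only. Its change was also the median of the 27. Interferon alpha genes are much alike, and whether each probe reads its own gene only was not tested. Of the 5 that rose with the block, Cgas, the DNA sensor, had 0.64 ± 0.16 (block adjusted p 0.0204) and Sting1, its adaptor, 0.43 ± 0.17 (0.0432). Tlr3, the endosomal RNA sensor, had 0.51 ± 0.18 (block adjusted p 0.035), and the cytokine signal inhibitors Socs1 and Socs3 had 0.55 ± 0.20 and 0.53 ± 0.31 (block adjusted p 0.0162 and 0.00485). With the block the SEs of Socs1 and Socs3 were 0.11 and 0.08. The calls of Sting1 and Tlr3 were lost with the block on quantile-normalized signals (adjusted p 0.0791 and 0.0828) and on the authors' values (0.0812 and 0.0845). On the first scan alone 11 of the 27 were higher, with a median of -0.01.

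A list of other interferon-stimulated genes held 46, of which 35 were tested; Mx1 and Mx2 had no matched probe and are not analysed here. Of the 35, 26 were higher in exoNOD, at a median of 0.18, and 15 had all exoNOD arrays above all controls, against 14.6% of all genes. None passed without the block; 12 had an unadjusted p under 0.05 and were higher, against 13.3% of all genes. With the block 9 rose and none fell, against 6.89% of all genes that rose. Ifit1bl1, a relative of Ifit1, had 1.28 ± 0.28 and Ifit3b, the near copy of Ifit3, had 0.65 ± 0.17 (block adjusted p 0.00271 and 0.00296). The nucleic acid binding proteins Ifi211, Mndal, Ifi204 and Ifi207 lay between 0.52 and 0.86, with block adjusted p between 0.00154 and 0.0425. The call of Ifi207 was lost with the block on quantile-normalized signals (adjusted p 0.0898) and on the authors' values (0.0915). Their sequences are alike, and whether each probe reads its own gene only was not tested. Ms4a4c had 0.68 ± 0.12, Phf11d 0.39 ± 0.11 and Slfn8, named after its values were seen, 0.91 ± 0.28. Ifi209, counted among the 26 at a change of 0.80, was above background on 2 of 3 control arrays. It entered the test through the exoNOD arrays only and is named for that reason.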

How the data were processed

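The arrays were Agilent 1-colour arrays carrying Cy3-labelled RNA. The deposited processed signal is an intensity, background-subtracted by Agilent Feature Extraction 11.0.1.1 per the file headers; no scaling across arrays had been applied. The flags deposited for each spot are other values (0 or 1). A table of the authors' own normalized values holds log2 numbers, which lay close to a quantile normalization of the signals (median absolute difference 0.000187 to 0.00112) and served as an alternative.

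Signals were taken as log2, averaged over the unflagged spots of a probe, and set relative to each array's 75th percentile. Symbols came from RefSeq accessions (27234 of 39429 probes). The probe with the highest mean signal stood for a gene, and 31065 probes were kept, those that cleared background on every array of 1 group or the other. The comparison used limma, version 3.58.1 (lmFit, eBayes with a trend; R version 4.3.3, data.table version 1.17.8), Benjamini-Hochberg adjusted over 25784 genes, at 0.05, and the code was tested on simulated data. The number of arrays limits the precision. Without the block, p-values weigh a change against the spread of arrays within groups. With the block, they weigh it against the spread of the differences among the pairs of equal number.

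The labels do not state that equal replicate numbers mark one experiment. The correlation of deviations from the group means was 0.366, 0.281 and 0.481 for same-numbered arrays and -0.341 to 0.00873 for the rest, so a fit with the number as a block is given beside the unblocked fit. Deviations within a group cancel out for each gene, so the low values for the rest follow in part from the others. The pairing was thus read in part from the same arrays that the block then tests. The normexp alternative (offset 50) used the median spot signal in place of the mean. The members, the other lists and the role groups were chosen with earlier results of these data known. Values are given array by array for the 12 genes with the lowest unadjusted p, the 2 brightest and the 2 dimmest; of the other lists, genes past the threshold in either fit (up to 8 each by lowest p) and Ifnb1, Ifnar1, Ifnar2, Mx1 and Mx2 are named. The rule as written also names 1 gene that is not reported here.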

Additional observations from a re-analysis of the deposited data

How the results depend on the processing

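With 3 arrays per group and no control in the second scan, no setting separates scan from group for exoNOD replicates 2 and 3. None of the 39 antiviral genes passed without the block, in the fit as reported or with 1 array left out (lowest 0, highest 0). With the block 8 passed, the same 8 on quantile-normalized signals and on the authors' values (8 and 8). The block without 1 replicate number gave 5 to 8 of the 39, against 440 to 4174 of all 25784 genes. The median change of the 39 genes, 0.17, ranged from 0.04 (scaling by the median) to 0.27, and from 0.12 to 0.22 with 1 array left out. The cause of the changes below was not tested.

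Over all genes 27 passed (26 higher, 1 lower). The replicate block gave 2248, or 1255 on quantile-normalized signals and 1229 on the authors' values; without replicate 1, 2 or 3 it gave 4174, 440 and 1738. Without the block, quantile normalization gave 39 (22 higher, 17 lower), the authors' values 31 (18 and 13) and normexp 157. No filter on low signals gave 0 (4638 at an unadjusted p under 0.05 by limma), as did the scan as a block (929) and the first scan alone (1141). Leaving out 1 array gave 0 to 1274. The count was 0 when control replicate 1 (2555 unadjusted), control replicate 2 (2424) or exoNOD replicate 2 (3050) was dropped, 2 when exoNOD replicate 3 was, 76 when control replicate 3 was and 1274 when exoNOD replicate 1 was.

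Some small changes turned sign. After quantile normalization, with or without the block, Rsad2 was at -0.0129, Stat2 at -0.00297 and Sp100 at -0.126, and in the authors' values at -0.0135, -0.00515 and -0.126. After normexp Isg20 was at -0.0809, Oas1a -0.0386, Oasl2 -0.155, Usp18 -0.107, Stat2 -0.175, Ifih1 -0.00734, Xaf1 -0.0762, Parp9 -0.0227, Parp14 -0.207, Dtx3l -0.13, Trim21 -0.173, Trim25 -0.103, Ifnar1 0.00701 and Ifnar2 -0.0022. Scaling by the median put Isg20 at -0.000913, Oasl2 -0.0651, Rsad2 -0.0868, Usp18 -0.0406, Stat2 -0.128, Xaf1 -0.0543, Ifi35 -0.0859, Ifitm2 -0.0356, Parp14 -0.115, Dtx3l -0.0566, Trim21 -0.128, Trim25 -0.0629 and Sp100 -0.103. The scan as a block, and the first scan alone, gave Oasl2 -0.0202, Stat2 -0.0314, Ifitm2 -0.0362, Parp14 -0.10, Trim21 -0.102, Cmpk2 0.0947, Sp100 -0.12 and Ifnar2 -0.0127. With 1 array left out, the genes whose sign turned ranged from -0.158 to 0.108 (Bst2), -0.177 to 0.012 (Cmpk2), -0.0458 to 0.131 (Ifi35), -0.151 to 0.276 (Ifitm2), -0.00179 to 0.357 (Isg20), -0.0438 to 0.202 (Oasl2), -0.0914 to 0.111 (Parp14), -0.0493 to 0.174 (Rsad2), -0.107 to 0.116 (Sp100), -0.0744 to 0.0641 (Stat2), -0.153 to 0.107 (Trim21) and -0.0533 to 0.244 (Xaf1). With the block and without replicate 1, Oasl2 was at -0.000535, Rsad2 -0.134, Stat2 -0.0214, Xaf1 -0.0586, Ifi35 -0.0577, Parp14 -0.0328, Dtx3l -0.00089 and Trim21 -0.0132. Without replicate 2, Bst2 was at 0.015 and Sp100 -0.183, and without replicate 3, Stat2 was at -0.0182, Bst2 0.0755 and Trim21 -0.0703.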

Other observations

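Several antiviral genes had a second probe, read here only as a further value. Those of Isg15 (0.76), Herc6 (0.36) and Zbp1 (0.38) had the sign of the probe used, as had those of Cmpk2 (-0.21) and Lgals3bp (-0.15). So had those of Isg20 (0.24), Oas1a (0.19), Ifih1 (0.13), Samd9l (0.17), Dtx3l (0.04) and Xaf1 (0.03). The second Ifih1 probe was lower in pair 3 (-0.16), unlike the probe used. Adar was at -0.15 with the probe used and 0.03 with the other.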
